A study of Mus musculus with 21 samples.

Results

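The endothelial main effect shared by the embryonic forebrain and kidney was measured in 12 of the 21 libraries of the series. These are all libraries of ribosome-bound RNA from brain endothelial cells, kidney endothelial cells, whole forebrain and whole kidney, with 3 libraries in each of the 4 groups. The question was which transcripts rise or fall with endothelial identity whichever organ the vessels are in, as opposed to those that mark the vessels of 1 organ. All samples came from mouse embryos at embryonic day 14.5, and translating ribosome affinity purification was used: the ribosomal protein Rpl10a, tagged with mCherry, is expressed from the Rosa26 locus only after Cre has acted, and RNA bound to tagged ribosomes is pulled down and sequenced. The endothelial libraries came from Cdh5CreERT2+/-;Gt(ROSA)26Sor-mCherry-Rpl10a+/- embryos, in which the Cdh5 promoter drives a Cre that acts only after tamoxifen, which was given by gavage some time before the embryos were collected. The whole-organ libraries came from Sox2Cre+/-;Gt(ROSA)26Sor-mCherry-Rpl10a+/- embryos, in which Cre acts in the epiblast and so in nearly all cells of the embryo, the vessels included, and does not need tamoxifen. All 4 groups carry 1 copy of the reporter allele. By the paper, a preparation took the tissue of as few as 1 embryo. Since the labels do not tie a library to single animals, p-values measure the spread between these libraries. Driver, the need for tamoxifen and sequencing lane differ between the endothelial and the whole-organ libraries, so that the endothelial effect cannot be told apart from an effect of any of these.

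Endothelial cells line all blood vessels. They hold to each other by junctions of VE-cadherin (Cdh5) and Pecam1, are kept alive and guided by VEGF, angiopoietin and Notch signals received by receptors such as Kdr, Tek and Notch1, and owe their identity to transcription factors of the ETS, SOX and KLF families. On this common ground each organ adds its own properties: brain vessels form the blood-brain barrier, with tight junctions and nutrient transporters, whereas many kidney vessels become fenestrated for filtration.

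The 12 libraries held 21760652 to 62482261 counted reads (median 37430252), from 53530594 in brain endothelial cells upwards and from 24605124 in whole kidney downwards. The kidney comparison therefore rests on fewer reads. Of the 23827 rows (transcripts) in each file, 19764 had at least 1 read and were tested. The labelled cell type was borne out by its markers: Cdh5, Pecam1 and Tie1 were higher in every endothelial library than in every whole-organ library of either organ. Values of single libraries are given as RPKM, reads scaled by transcript length and by the size of the library, as the authors computed it. Fold changes come from the fit of the counts with TMM factors, which RPKM does not carry, so that they differ somewhat from ratios of RPKM.

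**Figure D1:**
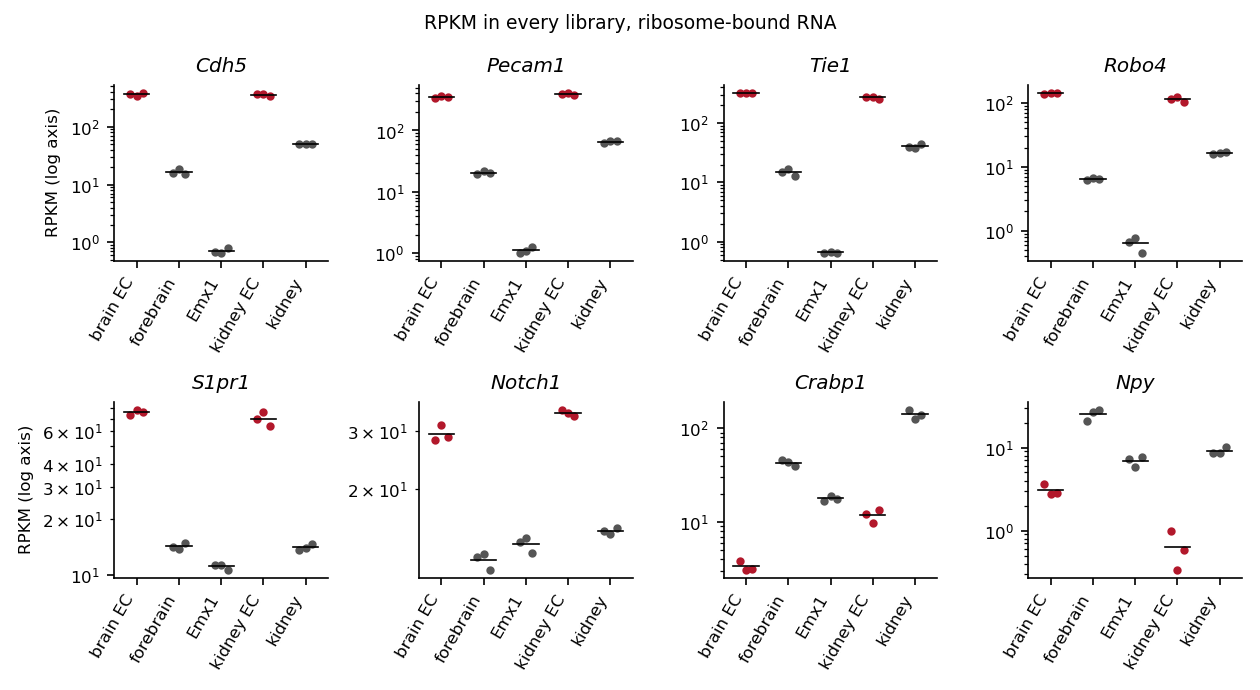
RPKM on a log axis of 8 transcripts in each ribosome-bound library (points, 3 per group) with the group mean (line). Cdh5, Pecam1, Tie1, Robo4, S1pr1 and Notch1 were higher in both endothelial groups (red) than in their whole organs (grey), and Crabp1 and Npy were lower; Emx1-lineage libraries of the forebrain are drawn for comparison and enter no test.

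Cdh5, the adhesion molecule of endothelial junctions whose promoter also drives the Cre of these embryos (chr8:104101625-104144511, plus strand, GRCm38), was measured at 368, 348 and 393 RPKM in brain endothelial cells and at 16.0, 18.4 and 15.4 in forebrain. In kidney it was measured at 364, 373 and 339 RPKM in endothelial cells and at 51.1, 51.2 and 51.3 in the whole organ. The endothelial levels of both organs overlapped, whereas the whole-organ levels were well apart, kidney being the higher. In the fit of all 12 libraries with organ and endothelial identity as terms, Cdh5 was higher in endothelial cells by 3.95 ± 0.28 (log2 ± SE, adjusted p = 3.2e-07). Within the organs the fold was 27.2 in brain and 8.79 in kidney. Here and below, adjusted p-values are those of edgeR's quasi-likelihood test with Benjamini-Hochberg adjustment over all tested rows, and a row was called at an adjusted p under 0.001.

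Pecam1 (chr11:106654217-106750628, minus strand), the junctional adhesion molecule CD31, stood at 337, 370.1 and 352 RPKM in brain endothelial cells against 19.4, 22.0 and 20.3 in forebrain. Kidney endothelial cells had 390.3, 415 and 372 RPKM and whole kidney 63.0, 66.8 and 67.9. Again no endothelial library came near a whole-organ library, and the main effect was 3.65 ± 0.25 (adjusted p = 2.7e-07), that is 21.0-fold in brain and 7.48-fold in kidney. Tie1 (chr4:118471191-118490061, minus strand), an orphan receptor kinase that works with the angiopoietin receptor Tek, followed with 320.3, 325 and 329 RPKM against 14.8, 16.7 and 13.0 in brain, and 279, 279 and 256 against 38.8, 38.7 and 43.7 in kidney. Its main effect was 3.91 ± 0.29 (adjusted p = 4.2e-07). In all 3 markers the fold was larger in brain, the difference between the organs being 1.63 (log2, 95% confidence interval 1.40 to 1.87) for Cdh5, 1.49 (1.27 to 1.71) for Pecam1 and 1.66 (1.40 to 1.92) for Tie1. The standard error of a main effect includes this difference between the organs, which is why it was larger than that within brain (0.09 for Cdh5) or kidney (0.08).

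Across all rows, 2822 were called higher in endothelial cells (14.3% of those tested) and 2939 lower (14.9%), so that 49.0% of the calls were higher. The split depended on the scaling of the libraries. With total counts in place of TMM factors, 1464 rows were higher and 5381 lower, or 21.4% higher, and the median of all rows shifted by -0.319 on the log2 scale. Within brain, 4858 rows were higher (24.6%) and 4109 lower (20.8%), and within kidney 3258 (16.5%) and 3552 (18.0%). A main effect can be called while 1 organ carries it, or where a transcript is hardly read in the other organ: 475 called rows reached a mean of 0.5 RPKM in libraries of brain only and 217 in libraries of kidney only. In the opposite sense, 627 rows were called in both organs with opposite signs.

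A stricter core was therefore defined, of rows called in the main effect and within each organ, in the same direction, with a main effect over 1 on the log2 scale. It held 1291 rows that were higher in endothelial cells (6.53% of those tested, 1268 of them mRNAs) and 1189 that were lower (6.02%, 1120 mRNAs). Of the core rows of both directions, 163 still reached a mean of 0.5 RPKM in libraries of 1 organ only. The median main effect was 2.03 among the higher rows, a 4.07-fold change, and -1.55 among the lower ones. Effects over 2 were reached by 663 of the higher and 240 of the lower rows, effects over 3 by 270 and 22, and effects over 4 by 13 of the higher rows. In 1272 of the 1291 higher rows and in all 1189 lower rows, every endothelial library lay beyond every whole-organ library of its organ. The calls that made the core fix this direction, so that the count only describes it. Rows of the higher core took 25.3% to 25.6% of the reads in brain endothelial cells and 27.7% to 28.1% in kidney endothelial cells. In forebrain they took 5.74% to 6.00% and in whole kidney 11.5% to 12.1%. The share of the higher core was thus close in both endothelial groups and higher in whole kidney than in forebrain. Rows of the lower core took 2.68% to 2.85% of reads in brain endothelial cells against 10.6% to 10.9% in forebrain, and 1.10% to 1.21% against 3.93% to 4.05% in kidney. In the whole-organ libraries, fewer cells of a type and less RNA per cell cannot be told apart. In the endothelial libraries, background RNA of other cells cannot be told apart from RNA of endothelial cells. The paper names such background as a key concern of profiling studies.

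By the rule for named genes, the 15 largest main effects among core mRNAs with at least 5 RPKM in both endothelial groups were taken, and Pecam1 was added as a marker. Their main effects ran from 3.65 to 5.61 with a median of 3.92. They fall into junction and surface molecules (Cdh5, Icam2, Esam, Cd93, Robo4), secreted or matrix-bound proteins (Mmrn1, Mmrn2, Egfl8), nitric oxide synthases (Nos3, Nos2), transcription factors (Klf2, Sox18), the receptor Tie1, and Gimap4 and Slfn5.

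Among the surface molecules, Robo4 (chr9:37401897-37415115, plus strand), a vessel-specific member of the Roundabout receptors that stabilises the vessel wall, was read at 139, 145.2 and 141 RPKM in brain endothelial cells and at 6.23, 6.76 and 6.43 in forebrain. In kidney the values were 115, 125 and 102 against 15.6, 16.3 and 17.1. No library of an endothelial group overlapped a whole-organ library, and the main effect was 3.93 ± 0.27 (adjusted p = 2.8e-07). Icam2, a ligand of leukocyte integrins, rose from 5.00, 5.16 and 5.27 RPKM to 122, 118 and 117 in brain and from 24.6, 27.1 and 25.8 to 169, 183 and 149 in kidney, a main effect of 3.90. Esam (3.87), a junctional immunoglobulin protein, and Cd93 (3.92), a C-type lectin of endothelium, did likewise.

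Nos3, the endothelial nitric oxide synthase that controls vessel tone, was measured at 77.9, 74.8 and 73.3 RPKM in brain endothelial cells and 44.9, 47.9 and 40.7 in kidney endothelial cells. The whole organs had 3.28, 3.13 and 3.20 (forebrain) and 6.19, 6.04 and 6.11 (kidney). Its main effect of 4.02 ± 0.28 amounted to 28.7-fold in brain and 9.13-fold in kidney (adjusted p = 2.7e-07). Nos3 shares exon sequence with an antisense transcript (Gm15587) and with Atg9b, and the library kit did not keep the strand, so that reads of these cannot be told apart there. Nos2, better known as the inducible synthase of activated macrophages, showed the same pattern with a main effect of 4.14 ± 0.32: 17.0, 18.7 and 17.2 RPKM in brain endothelial cells and 8.54, 8.96 and 8.03 in kidney endothelial cells, against at most 0.747 in forebrain and 1.18 in kidney.

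Klf2, a transcription factor that responds to blood flow, rose to 109, 108 and 93.3 RPKM in brain endothelial cells from 4.40, 4.72 and 3.88 in forebrain. It rose to 50.6, 56.0 and 48.9 from 8.90, 8.54 and 7.09 in kidney, so that the groups were fully apart in both organs (main effect 3.93 ± 0.32, adjusted p = 8.6e-07). Sox18, an SRY-related factor of vascular and lymphatic development, had a main effect of 3.91. The multimerins Mmrn1 (3.97) and Mmrn2 (3.90) are extracellular proteins of the vessel wall. Gimap4, a small GTPase of the immunity-associated family, had 43.3, 48.7 and 53.0 RPKM in brain endothelial cells but 257, 305 and 259 in kidney endothelial cells. The whole organs differed in the same sense, with at most 2.12 RPKM in forebrain and at least 36.7 in kidney, and its main effect was 3.95 ± 0.35. Its level was thus several times higher in kidney vessels although it rose in both organs.

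Egfl8, a secreted relative of the vascular protein Egfl7, had the largest main effect of the named genes, 5.61 ± 0.53 (adjusted p = 3.0e-06). Brain endothelial cells had 114, 84.6 and 90.5 RPKM against 1.04, 1.18 and 1.01 in forebrain, a 109-fold rise. In kidney endothelial cells it reached only 5.86, 5.10 and 6.04 RPKM against 0.388, 0.844 and 0.481, a 12.4-fold rise, and it fell short of the 0.001 threshold with whole-organ total RNA as reference (adjusted p = 0.00103). It therefore rose in both organs from a low base, but its level was much higher in brain vessels. Exons of Egfl8 overlap those of Gm20460 and Agpat1, so that part of its reads may belong to these.

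**Figure D2:**
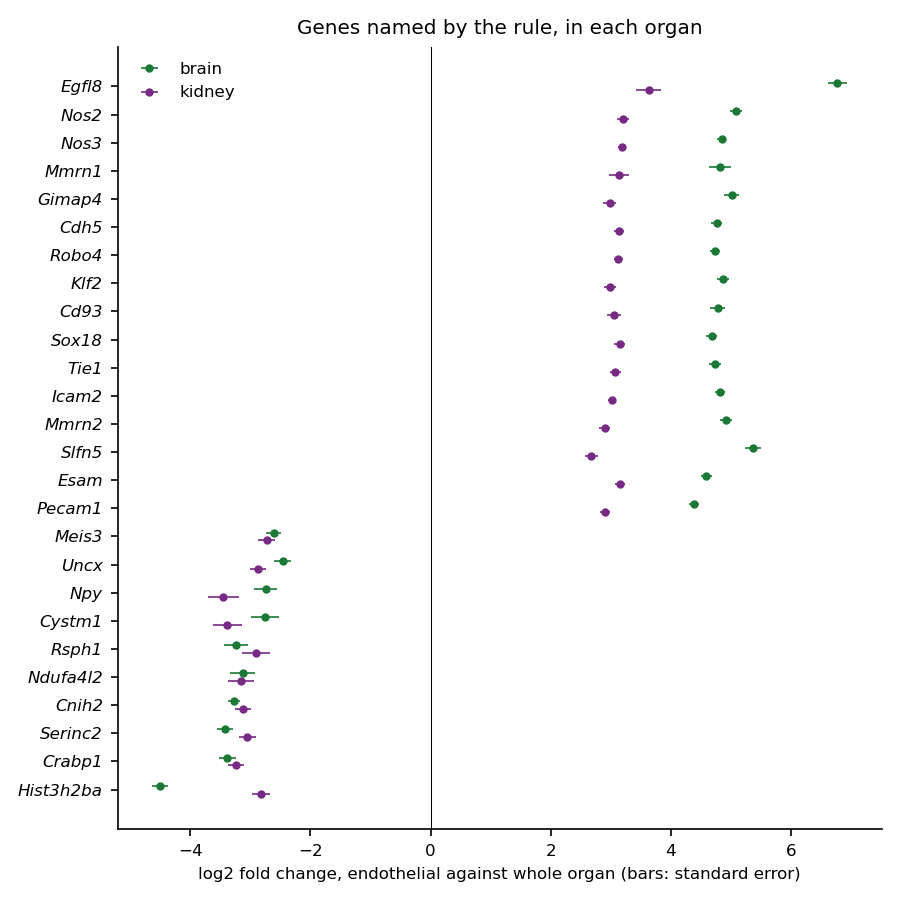
Log2 fold change of endothelial against whole-organ ribosome-bound RNA within brain (green) and kidney (purple) for the named genes with the largest shared rise or fall; bars are standard errors of the fit. For all 16 higher genes the brain value (4.39 to 6.77) lies to the right of the kidney value (2.67 to 3.64). For the 10 lower genes the brain minus kidney difference runs from -1.68 (Hist3h2ba, the only one called) to 0.70.

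The promoters of the core were examined for short motifs of the factor families named above, because core members rise together in both organs. Promoter sequences are those of RefSeq (GRCm38.p6), taken as the 250 bases before the first listed start of each gene, which can differ from the gene start given above. The motif CAGGAAG, a form of the GGAA element bound by ETS factors, lay on either strand in 10.5% of the promoters of all 27025 genes and in 10.2% of those of tested rows. In the higher core it lay in 14.1% (935 promoters matched of 1288 genes). By size of the main effect its share was 9.81% at 1 to 2 (469 promoters), 16.3% at 2 to 3 (283) and 21.9% above 3 (183). In the lower core it was 7.27% (839). Among the higher core rows of like degree in both organs, defined below, it was 12.4% (241 promoters), with CCGGAAG in 8.71%. This related motif CCGGAAG, which contains a CpG, went the other way with size, with 10.4% among tested rows, 9.17%, 3.89% and 2.19% in the same order of size, and 6.67% in the lower core. TATAAA was found in 8.74% of tested promoters and 8.98% of the higher core, AACAAT of SOX factors in 6.22% and 4.71%, and AGATAAG of GATA factors in 2.05% and 1.82%. In the same order of size, AACAAT lay in 3.41%, 4.59% and 8.2% of the higher core. AGATAAG lay in 1.28%, 1.41% and 3.83% (7 promoters above 3), and TATAAA in 7.68%, 11.0% and 9.29%. A larger share above 3 than among tested rows was thus not confined to CAGGAAG. These shares describe letters in a fixed window, not bound sites, and base composition was not matched. Of the 35 genes named by the rule, 19 had a promoter in the table. To show how the motif is placed, 4 promoters of core members are printed 5′ to 3′ on the strand of the gene, with CAGGAAG, or its reverse complement CTTCCTG, in capitals. They are Robo4 (chr9:37401722-37401971, plus strand), Egfl7 (chr2:26580833-26581082, plus), the Rap1 effector Rasip1 (chr7:45627287-45627536, plus) and the homeobox factor Hhex (chr19:37434591-37434840, plus).
Robo4: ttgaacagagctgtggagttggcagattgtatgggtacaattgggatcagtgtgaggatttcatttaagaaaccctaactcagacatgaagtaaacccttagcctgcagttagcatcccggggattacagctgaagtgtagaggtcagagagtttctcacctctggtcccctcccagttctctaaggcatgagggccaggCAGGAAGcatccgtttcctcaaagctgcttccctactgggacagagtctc
Egfl7: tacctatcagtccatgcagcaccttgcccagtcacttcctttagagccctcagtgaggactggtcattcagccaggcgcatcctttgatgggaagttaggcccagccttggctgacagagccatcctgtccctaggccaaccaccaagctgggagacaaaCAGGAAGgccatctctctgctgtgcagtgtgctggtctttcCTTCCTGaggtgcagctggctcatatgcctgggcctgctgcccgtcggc
Rasip1: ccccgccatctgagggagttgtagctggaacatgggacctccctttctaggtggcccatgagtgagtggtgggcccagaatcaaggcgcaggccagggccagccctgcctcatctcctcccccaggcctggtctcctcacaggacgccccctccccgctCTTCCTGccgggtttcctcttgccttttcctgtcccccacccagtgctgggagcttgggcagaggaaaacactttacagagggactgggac
Hhex: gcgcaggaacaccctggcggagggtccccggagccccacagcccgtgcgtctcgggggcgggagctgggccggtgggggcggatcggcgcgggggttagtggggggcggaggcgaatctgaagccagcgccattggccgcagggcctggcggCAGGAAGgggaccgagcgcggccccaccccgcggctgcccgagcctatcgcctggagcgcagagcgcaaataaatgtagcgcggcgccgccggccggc
The motif begins 50 bases before the start in Robo4, 90 and 49 bases before it in Egfl7, 91 in Rasip1 and 98 in Hhex. These promoters were picked because they hold it. Of the 7 genes with the largest rises or among the markers that had a promoter in the table, Robo4 held it and 6 did not (Egfl8, Gimap4, Klf2, Mmrn1, Slfn5 and Tie1), and Cdh5 and Pecam1 had no entry.

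The 3 other genes printed belong to the core with main effects of 3.21 (Egfl7), 3.56 (Rasip1) and 3.43 (Hhex). Egfl7, a matrix protein secreted by endothelium, had 382, 438 and 362 RPKM in brain and 344, 401 and 290.3 in kidney endothelial cells. Rasip1, needed for the opening of the vessel lumen, had 112, 106 and 110.2 and 151, 153 and 136, and Hhex, a factor of early endothelial and blood development, 40.1, 40.8 and 45.7 and 49.7, 52.7 and 43.3. Their endothelial levels were alike in both organs or differed little, as with the markers.

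The higher core was shared in direction but for most rows not in degree. The endothelial effect in brain had a median of 2.63 (quartiles 1.75 to 3.59) and that in kidney of 1.51 (1.03 to 2.26). The difference between the organs was tested as an interaction. Over all rows, the brain value was the greater in 3258 (16.5% of tested rows) and the kidney value in 1700 (8.6%). In the higher core it was greater in brain in 804 rows and in kidney in 57, and was not called in 430. A row was taken as changed to a like degree where the 95% confidence interval of the organ difference lay within -1 and 1 on the log2 scale, that is within 2-fold. This held for 324 higher rows (1.64% of tested rows, 25.1% of the higher core) and 609 lower rows (3.08%, 51.2% of the lower core). In 82 and 32 of these an organ difference was called but lay within the margin. The main effect is less easily called where the organs differ, since its standard error includes that difference. The shares of like degree within the core therefore depend partly on this filter. All 16 of the most strongly raised named genes differed between the organs, by 1.43 to 3.14 (median 1.70).

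**Figure D3:**
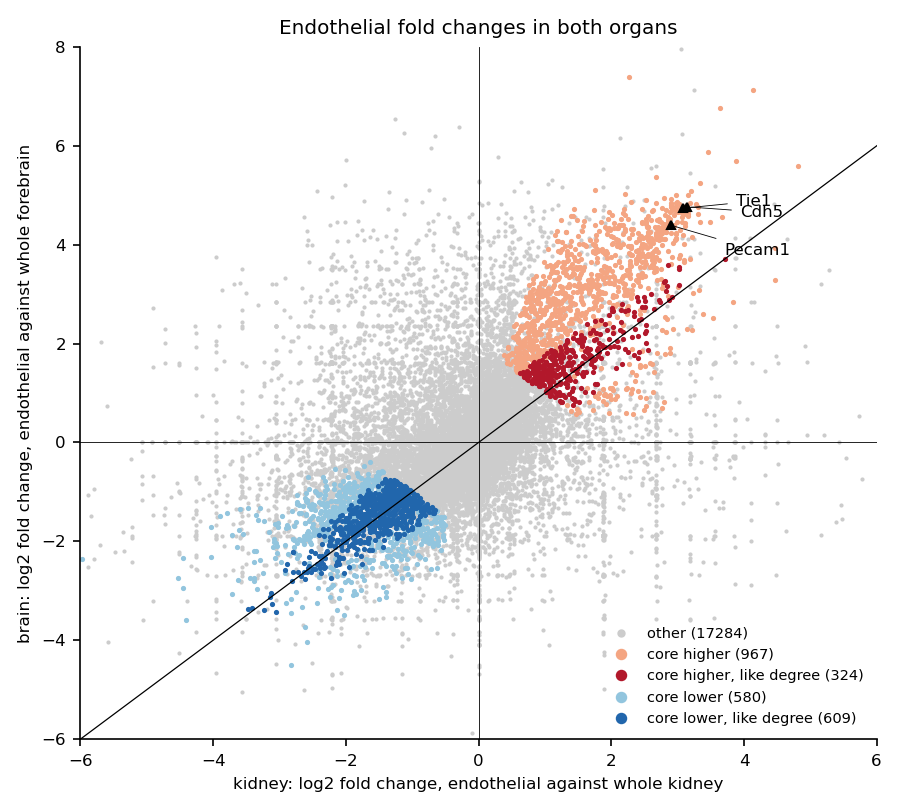
Log2 fold change of endothelial against whole-organ libraries in kidney (horizontal) and in forebrain (vertical), with 1 point per tested row; the line marks equal change. The higher core (orange and, where of like degree, red) lies mostly above the line and the lower core (blue) around it, with Cdh5, Pecam1 and Tie1 at the upper end; 14 rows, none of the core, fall outside the axes.

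The levels behind the larger fold in brain were compared next. Among the 1291 rows of the higher core, the kidney to brain difference between the endothelial groups had a median of 0.03 on the log2 scale, against -0.01 over all rows, and 67.7% lay within 2-fold (61.7% of all rows). In the separate total RNA libraries of both whole organs, which had no part in choosing the core, 994 of the 1291 rows (77.0%) were higher in kidney than in forebrain, against 50.7% of all rows, with a median difference of 0.94 (all rows 0.02). Where total RNA was over 2-fold higher in kidney (613 rows), the median organ difference in the endothelial effect was 1.52. It was 0.76 where both organs were within 2-fold (572 rows) and 0.07 where forebrain was over 2-fold higher (106 rows). Across the 1291 rows the Pearson correlation of both measures was 0.42. That with the kidney to brain difference between the endothelial groups was -0.26, so that a larger fold in brain also went with a higher level in brain vessels. Both are across genes, which are not independent. The former uses total RNA prepared from the same tissue as the whole-organ ribosome-bound RNA and the latter the endothelial libraries of the fold itself, so that they are given as descriptions.

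**Figure D4:**
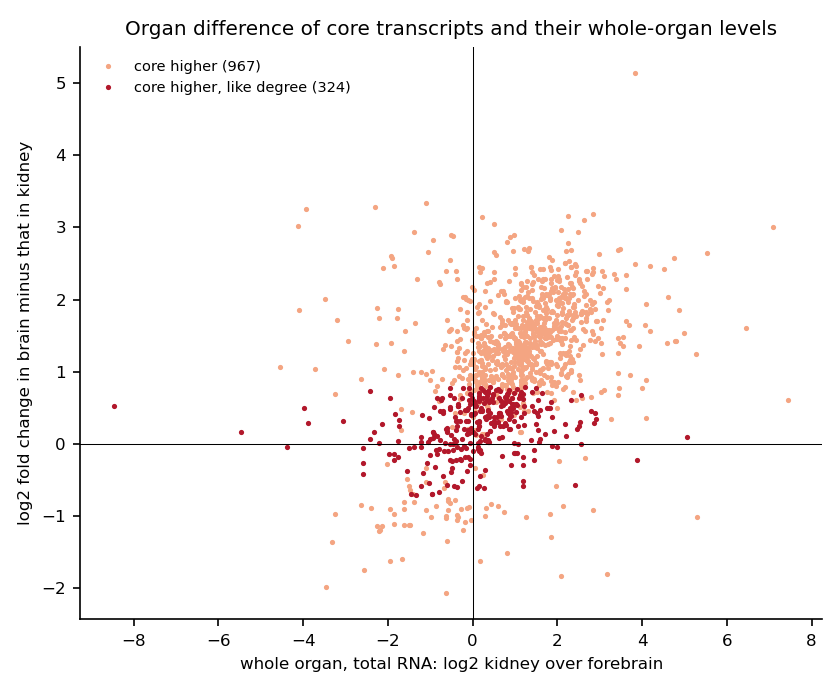
For the 1291 rows of the higher core, the kidney to forebrain difference in whole-organ total RNA (log2, horizontal) and the endothelial effect in brain minus that in kidney (log2, vertical); red points are the 324 rows of like degree. Most points lie at the upper right, where the transcript was more abundant in whole kidney and the fold was larger in brain.

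Transcripts raised to a like degree included receptors and cytoskeletal proteins that other cells of the organs also use. S1pr1, the receptor for sphingosine-1-phosphate that tightens vessel junctions, had 73.5, 78.3 and 76.0 RPKM in brain endothelial cells and 14.1, 13.7 and 14.8 in forebrain. It had 70.0, 76.0 and 63.8 in kidney endothelial cells and 13.6, 13.9 and 14.7 in whole kidney. The endothelial values overlapped between the organs, as did the whole-organ values, and the effect was 2.71 in brain and 2.64 in kidney (difference 0.07, 95% confidence interval -0.13 to 0.27; main effect 2.67 ± 0.06, adjusted p = 1.2e-10). Notch1, the receptor of Notch ligands in vessel branching, rose from 12.5, 12.8 and 11.4 RPKM to 28.1, 31.3 and 28.8 in brain and from 14.9, 14.7 and 15.3 to 34.7, 34.0 and 33.2 in kidney, with a difference of 0.04 (-0.15 to 0.23). Its ligand Jag2 (main effect 2.81, difference 0.41) and the blood and vessel factor Tal1 (3.00, difference 0.32) were larger in size. The intermediate filament protein Vim (1.72), the laminin receptor subunit Itga6 (1.73), the inhibitory G protein subunit Gnai2 (1.64), the Rap1 exchange factor Rapgef4 (2.45), the junctional receptor Heg1 (1.93) and the matrix proteoglycan Agrn (2.28) also rose within the margin. Such rows had small standard errors of the main effect (0.06 to 0.10 for S1pr1, Notch1, Vim, Gnai2, Jag2, Heg1 and Agrn), since both organs gave nearly the same value.

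**Figure D5:**
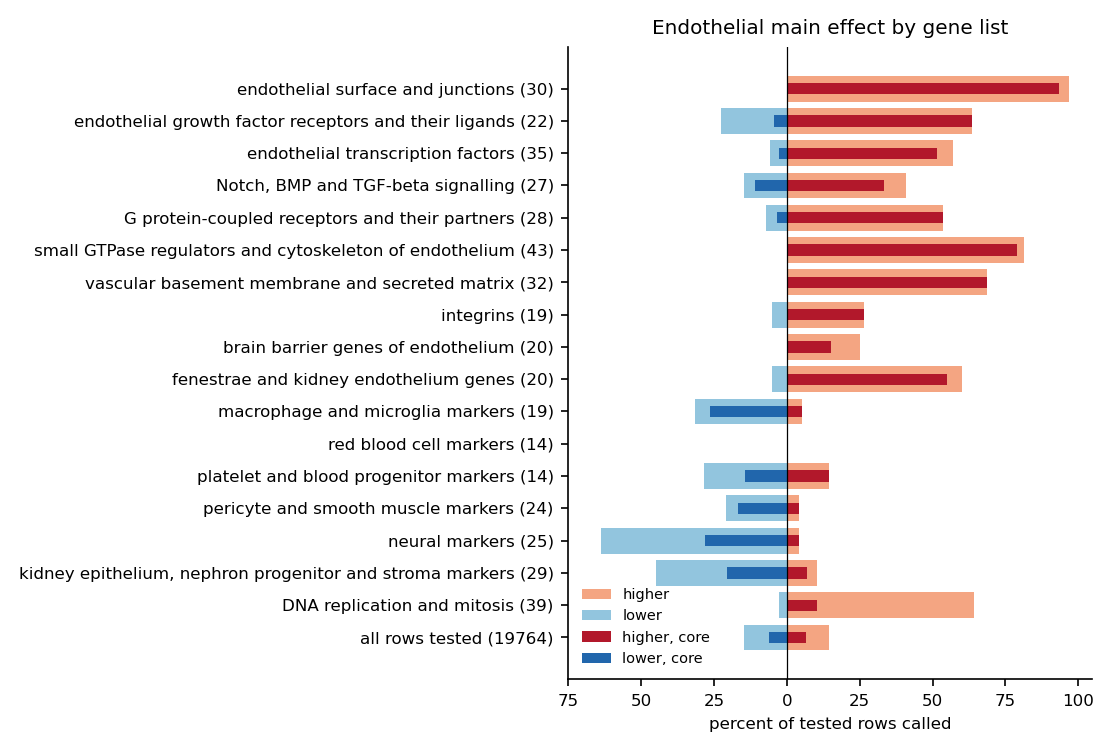
Share of the tested rows of each gene list that were called in the endothelial main effect, higher to the right and lower to the left (percent, wide bars), and the share in the core (narrow dark bars), with the number of tested rows in parentheses. Surface, GTPase and matrix lists lie almost wholly on the higher side, neural and kidney lists on the lower side, and 14.3% and 14.9% of all rows were called.

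Gene lists of endothelial biology are described by counts, beside 14.3% of all rows called higher, 14.9% lower and a median main effect of -0.05 over all rows. The lists were chosen with earlier results of these data known. Their counts, and comparisons between lists, are therefore descriptions and not independent tests. Of 30 surface and junction genes, 29 rose and none fell, 28 of them in the core, with a median of 3.59. Selp, the P-selectin of activated endothelium, was not called (1.02), and Sele, the E-selectin, was called while no library reached 0.13 RPKM, so that no fold is given for it. The barrier claudin Cldn5 (3.55), the co-receptor Eng (3.57), the sialomucins Emcn (3.41) and Cd34 (3.80) and the clotting protein Vwf (3.14) were among the core. Only Jam2 (1.15) of this list was raised to a like degree.

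Of 22 growth factor receptors and ligands, 14 rose, all within the core, and 5 fell. Receptors made up most of the first group: the VEGF receptors Flt1 (3.76), Kdr (3.82) and Flt4 (3.84), the angiopoietin receptor Tek (3.57), the apelin receptor Aplnr (3.85) with its ligand Apln (3.32), and the semaphorin receptor Plxnd1 (3.02). Pdgfb (3.61), by which endothelium recruits pericytes, and Vegfc (1.88) rose too. The ligands that fell were Vegfa (-0.68), Vegfb (-0.84), Pgf (-0.92), Angpt1 (-1.42) and Figf (-1.98), which act on endothelium. Angpt2, the ligand of sprouting vessels, was not called as a main effect (1.23): it rose by 3.16 in brain and fell by 0.68 in kidney.

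Of 35 transcription factors, 20 rose and 2 fell in the main effect, with 18 of the former in the core. Within brain 29 were called higher and 2 lower, and within kidney 25 higher and 5 lower. Some factors without a main-effect call were thus called within an organ. ETS factors were represented by Erg (3.82), Ets1 (3.27), Fli1 (3.25), Elk3 (2.90) and Ets2 (2.67), and the SOX F factors by Sox18, Sox7 (3.83) and Sox17 (3.59). The hypoxia factor Epas1 (3.27), the haemato-endothelial factors Lyl1 (3.19) and Lmo2 (3.09) and the repressor Bcl6b (3.54) rose as well. Those that fell were the venous factor Nr2f2 (-0.78) and Heyl (-1.88), a Notch target of mural cells. Gata2, Mecom, Klf4 and Mef2c had positive main effects that were not called.

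Notch, BMP and TGF-beta genes were divided, as 11 of 27 rose and 4 fell, with 9 and 3 in the core. Notch1, Notch4 (3.63), Dll4 (3.64) and Jag2 rose, together with the TGF-beta family receptors Acvrl1 (3.45), Eng, Tgfbr2 (2.83) and Tgfbr3 (1.86) and the ligand Tgfb1 (3.21). Bmpr1a (-1.78), Bmpr1b (-1.28), Id2 (-1.49) and Tgfbr1 (-0.60) fell. Notch2 (0.05) and Notch3 (-0.59) were not called, and Jag1 rose by 2.65 in brain while its kidney value was -0.03.

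Of 28 G protein-coupled receptors and partners, 15 rose and 2 fell. All 15 belonged to the core, among them S1pr1, the adrenomedullin receptor Calcrl (2.41) with its partner Ramp2 (3.14), Eltd1 (3.77), Gpr116 (3.50), the thrombin receptor F2rl3 (3.58) and the adenosine receptor Adora2a (2.84). S1pr3 (-1.36) and Cxcr7 (-0.64) were the 2 that fell, and only 1 of them did in 8 of the 12 fits that left out a library. Regulators of small GTPases and of the endothelial cytoskeleton rose most uniformly of the intracellular lists described here: 35 of 43 were higher and none lower, 34 were in the core, and 10 of these were raised to a like degree. They included the caveolar proteins Cav1 (3.33), Cav2 (2.88) and Sdpr (3.25), the guanine nucleotide exchange factors Arhgef15 (3.55) and Fgd5 (3.18), Arap3 (3.62), She (3.86), and the Rap1 group of Rasip1, Sipa1 (3.25), Rapgef4, Rapgef5 (2.21), Rap1a (1.01) and Rap1b (1.06). Of the cerebral cavernous malformation genes, Pdcd10 rose by 0.69, and Ccm2 (-0.02) and Krit1 (0.16) were not called.

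In the list of vascular basement membrane and secreted matrix, 22 of 32 rose, all of them in the core, and none fell. Perlecan (Hspg2, 3.45), Lama4 (3.09), Lama5 (3.38), Nid2 (3.02), Col15a1 (3.86), Col4a1 (2.49) and Col4a2 (2.53) belong to the vessel's basement membrane. The rise was larger in brain in 30 of the 32, all of which were called higher in brain and 24 in kidney. Hspg2 was most abundant in kidney vessels, with 1193, 1131 and 1246 RPKM, but whole kidney had 289, 231 and 244. Brain endothelial cells had 331, 324 and 316 RPKM and forebrain 21.0, 21.1 and 15.9. Kidney was thus higher in both endothelial and whole-organ libraries, and its fold was lower (5.87 against 20.5 in brain). Of 19 integrins 5 rose, all in the core (Itga2, Itga3, Itga5, Itga6, Itgb1), and Itgb5 (-0.85) fell.

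Of 20 genes of the blood-brain barrier, 19 were higher in brain endothelial cells than in forebrain, but in kidney 3 were higher and 9 lower, and 3 were in the core: the drug efflux pumps Abcb1a (3.56) and Abcg2 (2.51) and the lipoprotein receptor Lrp8 (1.16). Of all tested rows, 6.53% were in the higher core. The glucose transporter Slc2a1 had 698, 713 and 754 RPKM in brain endothelial cells and 50.2, 49.3 and 46.2 in forebrain, but 24.6, 25.2 and 23.9 in kidney endothelial cells and 29.4, 31.5 and 29.1 in kidney. Its log2 effect was 4.18 in brain and 0.04 in kidney. The lipid transporter Mfsd2a (3.68 in brain, -2.14 in kidney) and the Wnt effector Lef1 (2.25 and -1.14) changed in opposite directions. Of 20 genes of fenestrae and kidney endothelium, 12 rose and 1 fell, with 11 in the core. The diaphragm protein Plvap (3.65), the arterial connexins Gja4 (3.42) and Gja5 (3.75) and Sema3g (3.59) therefore rose in both organs at this age, although the list was drawn up for kidney. Their levels were not shared alike across the list. Between the endothelial groups, 13 of the 20 genes were higher in kidney and 2 lower. Summed RPKM was 2170 to 2339 in kidney endothelial cells and 780 to 790.5 in brain endothelial cells. The effect was larger in brain for 8 genes and in kidney for 7. The difference between these 2 lists was not tested.

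By the rule for organ differences, the 5 rows with the largest difference in each direction were taken among those called in the main effect and with at least 5 RPKM. Egfl8, Arhgef5, Rassf9, Kank4 and Trf were raised far more in brain. Arhgef5, a guanine nucleotide exchange factor, had 19.9, 19.9 and 21.8 RPKM in brain endothelial cells against 1.07, 1.11 and 0.958, and 14.5, 15.1 and 14.7 in kidney endothelial cells against 6.55, 7.00 and 7.50. Its endothelial levels differed little between the organs and its whole-organ levels several-fold. The opposite held for the iron carrier transferrin (Trf), with 150.2, 132 and 144.7 RPKM in brain endothelial cells and 5.99, 6.88 and 6.39 in kidney endothelial cells, whereas the whole organs had at most 10.5 and 3.63. In the other direction stood Pcdh17, Sh3gl3, 6430548M08Rik, Rspo3 and Atat1. The protocadherin Pcdh17 rose by 2.77 in kidney, from 5.47, 5.01 and 6.74 to 30.7, 29.7 and 33.0 RPKM, and by 0.70 in brain, from 5.75, 6.38 and 6.96 to 8.18, 7.50 and 9.61. The Wnt potentiator Rspo3 fell by 2.76 in brain and by 1.02 in kidney. The main effects of such rows had adjusted p-values close to the threshold (8.7e-04 for Kank4 and 8.8e-04 for Pcdh17), and 7 of these 10 lost the call with the replicate number as a term. They also lost it when single libraries were left out: Arhgef5, Rassf9 and Trf without any of the 3 forebrain libraries, Kank4 and Pcdh17 when any of 9 of the 12 libraries was left out, and Sh3gl3 and 6430548M08Rik when any of 7 was.

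The lower core reached smaller effects, and its fold was more even between the organs. Its median effect was -1.52 in brain and -1.64 in kidney, and 139 rows fell further in brain and 85 further in kidney. Smaller effects also meet a fixed margin of like degree more easily. The levels were less even. Their kidney to brain difference between the endothelial groups had a median of -1.23 (log2), against -0.01 over all rows. In whole-organ total RNA it was -1.30, against 0.02 over all rows. Whether whole-organ RNA carried over into the endothelial libraries was not tested. The 10 largest falls by the rule ran from -2.67 to -3.71, and an organ difference was called for 1 of them, the histone gene Hist3h2ba (-4.50 in brain and -2.82 in kidney). Crabp1, the cytosolic binding protein of retinoic acid (chr9:54764748-54773110, plus strand), had 45.9, 43.8 and 39.3 RPKM in forebrain and 3.85, 3.09 and 3.17 in brain endothelial cells. In kidney it had 157, 125 and 139.6 in the whole organ and 12.3, 9.65 and 13.5 in endothelial cells. Whole organ and endothelial libraries were fully apart in both organs, while the kidney level was several times that of brain in both kinds of library. Its main effect was -3.31 ± 0.11 (adjusted p = 1.1e-09), with an organ difference of -0.14 (95% confidence interval -0.53 to 0.24).

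The other large falls came from genes of several cell types. Npy, the neuropeptide Y, fell from 20.8, 26.6 and 28.5 RPKM in forebrain to 3.61, 2.76 and 2.84 and from 8.56, 8.71 and 10.2 in kidney to 0.992, 0.336 and 0.580 (main effect -3.05). Cnih2 (-3.20), an auxiliary protein of glutamate receptors, Uncx (-2.68), a homeobox factor of progenitors, and Meis3 (-2.67), another homeobox factor, also fell in both organs. Ndufa4l2 (-3.15), which is known as a pericyte transcript, stood at 13.2, 13.8 and 16.6 RPKM in forebrain and 17.3, 21.2 and 21.6 in kidney and did not exceed 2.07 in any endothelial library. Serinc2 (-3.24), Rsph1 (-3.09), a protein of motile cilia, and Cystm1 (-3.06) complete the set. Cnih2 overlaps Yif1a, and Ndufa4l2 overlaps Shmt2, by a few exon bases.

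Markers of other cell types measured how far the endothelial libraries were depleted of them. Of 25 neural markers, 16 fell and 1 rose, the intermediate filament gene Nes (2.23), which was at 411, 353 and 356 RPKM in brain endothelial cells and 147, 141 and 137 in kidney endothelial cells against at most 78.8 in any whole-organ library. Summed over the list, RPKM ran from 1230 to 1500 in brain endothelial cells and from 4931 to 5032 in forebrain, and from 206 to 215 and from 134 to 146 in kidney. Without Nes the sum was 878 to 1090 against 4864 to 4953 in brain and 63.6 to 73.6 against 77.4 to 95.9 in kidney. Of 29 markers of kidney epithelium, nephron progenitors and stroma, 13 fell and 3 rose, among them Podxl (2.61), also a surface protein of endothelium. The sum was 467 to 482 in kidney endothelial cells against 1178 to 1264 in kidney, and 153 to 167 against 100.4 to 103 in brain.

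Of 24 pericyte and smooth muscle markers, 5 fell and 1 rose, Cspg4 (2.27). Rgs5 (-2.11), Kcnj8 (-1.68), Pdgfrb (-0.95) and Acta2 (-1.01) fell with Ndufa4l2. Their sums overlapped in brain (307 to 425 in endothelial cells, 357 to 395 in forebrain) and were 505 to 678 against 863 to 1043 in kidney. Of 19 macrophage and microglia markers, 6 fell and Laptm5 (1.98) rose. Laptm5 lost its call with total counts, with the replicate number as a term, and when any of the 6 brain libraries or kidney library 2 was left out. Lower calls were made for 3 to 6 markers when a library was left out, for 13 with total counts and for 16 with DESeq2. Their sums were 104 to 115 against 107 to 125 in brain, where the groups overlapped, and 22.7 to 25.7 against 78.5 to 97.2 in kidney. Of 14 platelet and blood progenitor markers 2 rose (Kit and Cd44) and 4 fell. Only 1 fell without brain endothelial library 1, forebrain library 2, kidney endothelial library 3 or kidney libraries 1 or 3, and 2 with the replicate number as a term. The sums were 51.8 to 54.4 against 73.5 to 79.3 in brain and 52.1 to 63.0 against 38.3 to 40.5 in kidney. None of 14 red blood cell markers was called, with sums of 125 to 170.2 against 157 to 248 in brain and 50.8 to 103 against 109.8 to 201 in kidney. In each of these lists at most 2 tested rows were at 0 in a whole group, and 5 of the 19 red blood cell rows in the files (the globin genes Hba-a1, Hba-a2 and Hbb-b1) had no read in the 12 libraries and were not tested. What these cells add to core transcripts was not tested. None of 5 sex-linked genes was called, but their summed RPKM differed widely within the whole-organ groups. Single forebrain libraries had 1.13, 32.24 and 34.56, and single whole kidney libraries 5.89, 6.62 and 49.48. Brain endothelial libraries had 24.49, 33.93 and 41.94, and kidney endothelial libraries 27.45, 34.44 and 45.81. With such spread the missing calls do not show that embryo sex was balanced between the groups, which was not tested.

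Genes of DNA replication and mitosis rose by small amounts. Of 39, 25 rose and 1 fell (Ccnd2, -0.60, not called without brain endothelial library 1 or 3), and 4 were in the core, 2 to 5 when a library was left out: the cyclin-dependent kinase inhibitor Cdkn1a (2.70), Ccnd1 (1.34), Cenpe (1.11) and Cdk1 (1.05). The median was 0.61, and most members rose by less than 2-fold, such as Mcm5 (0.77), Aurka (0.75), Plk1 (0.70) and Top2a (0.54). Mki67 (0.57) was not called. This shift is close to the size of the scaling choice: 5 of 39 were called higher with total counts and 17 with the replicate number as a term. With whole-organ total RNA as reference 8 were called, and the values of Top2a, Rrm2 and Kif20a turned negative.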

How the data were processed

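Ribosome-bound RNA was sequenced from unstranded TruSeq libraries. The authors mapped reads with RUM to GRCm38 and counted them with rpkmforgenes on UCSC refGene rows. The deposited counts are raw reads per row, and the deposited RPKM values are the same reads scaled by the authors to transcript length and library size. Samples were grouped by their labels. Counts of the 12 libraries (21760652 to 62482261 reads) were fitted with edgeR 4.0.16 in R 4.3.3 (TMM, glmQLFit, glmQLFTest) over rows with at least 1 count, with organ and endothelial identity as terms. A fit with 4 groups gave the effects within each organ and the interaction. The p-values were adjusted by Benjamini-Hochberg, with calls under 0.001. The standard error is the log2 fold change over the square root of F. RPKM entered no test. It served for display, for the minimum level and the overlap rule of the named genes, and for summed marker levels. The counts of rows read in 1 organ only and of rows with fully separated libraries also used it. Precision at this depth is given by standard errors, SD or the 3 single values.

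Genes were named by rule: Cdh5, Pecam1 and Tie1; the 15 largest rises and 10 largest falls of core mRNAs with no repeated symbol, at least 5 RPKM in both endothelial (rises) or both whole-organ groups (falls), and no overlap between libraries; the 5 largest organ differences each way; and members that show how any of 18 gene lists moved. The members and lists were chosen with earlier results of these data known. Coordinates are from GENCODE on GRCm38 and matched 438 of 451 symbols. The tests were checked on simulated data. Alternatives were DESeq2 1.42.0, relative log expression and total-count scaling, a minimum of 10 counts in 3 libraries, the replicate number as a term, all 21 libraries in a single fit, whole-organ total RNA as reference, other thresholds and leaving out each library. Leaving out each library and other scalings for the effects within organs, and the counts of list members under every alternative, were added after seeing the data. Some list members are counted but not reported singly here. Columns of Emx1-lineage and total RNA libraries were used only where named.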

Additional observations from a re-analysis of the deposited data

Results flagged for a closer look

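The endothelial effect differed between forebrain and kidney by the interaction test in 3258 rows with the greater value in brain and in 1700 with the greater value in kidney. The genes named by the rule that differed this way are given with the brain minus kidney difference in log2 fold change. Of the largest rises these were Egfl8 (3.14), Slfn5 (2.70), Gimap4 (2.03), Mmrn2 (2.02), Nos2 (1.88), Klf2 (1.87), Icam2 (1.80), Cd93 (1.72), Mmrn1 (1.67), Tie1 (1.66), Nos3 (1.65), Cdh5 (1.63), Robo4 (1.61), Sox18 (1.53), Pecam1 (1.49) and Esam (1.43). Of the largest falls it was Hist3h2ba (-1.68), which fell further in brain. Of the rows taken for their organ difference, Arhgef5 (3.18), Rassf9 (3.16), Kank4 (3.10) and Trf (2.93) rose more in brain. Pcdh17 (-2.07) and 6430548M08Rik (-1.75) rose more in kidney, while Sh3gl3 (-1.82), Rspo3 (-1.74) and Atat1 (-1.73) fell further in brain. With 3 libraries per group no outlying library was looked for.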

How the results depend on the processing

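Of 230 alternative values for the counts of called rows, 207 stayed within 1.5 times the reported count. With total counts, the main effect gave 1464 higher and 5381 lower rows, the lower core 2032, the like-degree rows 172 higher and 1041 lower, and the kidney effect 1677 and 6326. Fitting all 21 libraries and testing the mean of both organs gave 5205 and 4811, and the mean of both contrasts in the 12 libraries gave 4849 higher rows. DESeq2 called 4506 lower rows and 2724 rows with a greater effect in kidney. An adjusted p under 0.05 gave 5159 and 5561. Without a fold minimum the core held 2239 and 1880 rows, and over a log2 of 2 it held 663 and 240. A 1.5-fold margin left 119 and 193 rows of like degree and a margin of 1.5 on the log2 scale 618 and 976, and total RNA as reference gave 609 higher ones. With relative log expression the core shared 1222 of the 1291 higher and all 1189 lower rows, and with total counts 905 and 1189. In the 17 alternatives other than total counts and the total RNA reference, 1026 higher (79.5%) and 886 lower rows (74.5%) were core each time. Leaving out a library gave 2272 to 2688 higher and 2422 to 2688 lower main-effect rows, 1118 to 1317 and 1073 to 1142 in the core, 296 to 342 and 548 to 592 of like degree, 2866 to 3243 (brain) and 1434 to 1654 (kidney) organ differences, 4364 to 4910 and 3629 to 4191 in brain, and 2798 to 3369 and 3033 to 3635 in kidney.

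The 35 genes named by the rule never changed direction in 735 alternative values. Most were chosen for large effects in these data, and most alternatives refit the same libraries, so that a stable sign was largely set beforehand. The alternative at an adjusted p under 0.05 keeps the same estimate and cannot change its sign. In 62 of the values the genes lost the call, which concerned Arhgef5, Rassf9, Kank4, Trf, Pcdh17, Sh3gl3 and 6430548M08Rik, and with total RNA as reference Egfl8 and Rspo3. Of the list members reported here, 10 changed sign and were called in the main fit or in the alternative, each with total RNA as reference. These were Rhd (-2.18), Hbb-b2 (-3.25), Alas2 (-2.53), Slc4a1 (-1.95), Itga10 (-1.46), Notch2 (-0.89), Top2a (-0.19), Rrm2 (-0.12), Kif20a (-0.008) and Ccm2 (0.52). Sign changes of members called in neither fit were not counted. The cause was not tested. Of 684 counts for the lists under these alternatives, 73 moved by over 1.5 times, such as integrins (11 of 19 higher with all 21 libraries in the fit). Replicate numbers did not pair the compared groups: same-numbered endothelial and whole-organ libraries of an organ had correlations of their deviations from -0.03 to 0.08. Same-numbered brain and kidney endothelial libraries had correlations of 0.226, 0.169 and 0.162, and those with different numbers were below 0. Whole forebrain and whole kidney libraries had 0.275, -0.048 and 0.130 with the same number, and -0.338 to 0.247 with different numbers. The fits treat these libraries as independent. With the replicate number as a block, 3240 rows had the greater effect in brain and 1673 in kidney, and 2210 rows were higher and 2252 lower, with 1119 of the higher and 1107 of the lower core kept. Whole kidney was the shallowest group, and transcripts with few reads there may lack a call for that reason.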
